A study of Mus musculus with 12 samples.

Results

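The guanylin axis and the brush border of the mouse colon were followed through 10 genes: the hormones Guca2a (guanylin) and Guca2b (uroguanylin), their receptor Gucy2c, the microvillus proteins Vil1, Ezr and Myo1a, the intermicrovillar cadherins Cdhr2 and Cdhr5, and the apical surface proteins Tmigd1 and Lypd8. The genes were found by symbol, 1 row each, among the 24391 symbols measured in every library. All 10 passed the filter on low values, as did 12052 symbols in all.

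RNA had been sequenced from colon epithelial scrapings of C57BL/6 mice aged 18 weeks, as 12 libraries in 3 groups of 4. The control group had neither agent. The second group had been given azoxymethane (AOM), a carcinogen that acts on the colon, and dextran sulfate sodium (DSS), which injures its lining; the third had been given both and also curcumin, the yellow polyphenol of turmeric. The doses and the timing of the agents are not given in the sources used here. Per the labels, the proximal end of the colon and right-sided tumours had been cut away before the mucosa was scraped, so the libraries hold what remained of the colon lining. The labels do not say that the 4 libraries of a group came from separate mice, and the p-values therefore measure the spread between these libraries.

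Guanylin and uroguanylin are small secreted peptides that bind guanylate cyclase C, the product of Gucy2c, on the luminal face of enterocytes. The receptor makes cyclic GMP, which through protein kinase G opens the chloride channel Cftr, restrains the sodium-proton exchanger Slc9a3 and so draws fluid into the lumen. In the colon guanylin is made in goblet cells and mature colonocytes, and its loss is a known feature of colon tumours. The brush border is the carpet of microvilli on the same luminal face: villin and other bundlers hold its actin cores, ezrin and myosin-1a tie the cores to the membrane, and cadherin links between microvilli keep them packed.

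The promoters are shown for the pair of ligands and for Tmigd1. As described below, Guca2a and Tmigd1 varied most of the 10 genes between libraries of a group. Guca2b, which lies on the same chromosome as Guca2a, varied less than these but more than the remaining genes. Each sequence is the 250 bases before the RefSeq start of transcription, 5′ to 3′ on the gene's own strand, in the GRCm38.p6 build. Capitals mark matches to motifs searched on both strands: TATAAA (the box that places the start of transcription), TTTATG (core of a site for the intestinal factor CDX), GTTAAT (half-site of the factor HNF1) and CAAAGTCCA (site of the factor HNF4). A TTTATG on the reverse strand reads CATAAA here.
Guca2a, chr4:119637482-119637731, forward strand: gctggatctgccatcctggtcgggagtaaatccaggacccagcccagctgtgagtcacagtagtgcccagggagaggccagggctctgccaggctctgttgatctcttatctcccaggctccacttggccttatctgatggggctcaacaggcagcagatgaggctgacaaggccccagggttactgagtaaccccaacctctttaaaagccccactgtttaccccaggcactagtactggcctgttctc
Guca2b, chr4:119658946-119659195, reverse strand: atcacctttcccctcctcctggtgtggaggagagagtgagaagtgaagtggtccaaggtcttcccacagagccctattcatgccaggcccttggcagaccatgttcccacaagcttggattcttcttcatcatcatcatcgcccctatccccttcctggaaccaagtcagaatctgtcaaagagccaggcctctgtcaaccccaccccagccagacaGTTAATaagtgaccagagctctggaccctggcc
Tmigd1, chr11:76901909-76902158, forward strand: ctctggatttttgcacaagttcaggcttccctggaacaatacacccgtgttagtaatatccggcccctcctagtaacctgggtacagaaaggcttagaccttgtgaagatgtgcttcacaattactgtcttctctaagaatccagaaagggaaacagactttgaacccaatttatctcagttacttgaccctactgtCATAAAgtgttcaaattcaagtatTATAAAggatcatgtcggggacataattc

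The Guca2a window held none of the 4 motifs. Guca2b had a GTTAAT beginning 33 bases before the start, and such a match was found in 6.47% of the 32536 mouse promoter windows of the same length. Tmigd1 had TATAAA from 29 bases before its start, a motif in 12.3% of windows, and the CDX core on the reverse strand from 53 bases before it, a motif in 10.8%. Tmigd1 has another RefSeq start, at whose window (chr11:76890870-76891119) none of the 4 matched. Of the other genes, Cdhr2 had GTTAAT 54 bases before its start, Cdhr5 had the CDX core on the reverse strand 39 bases before it, and Lypd8 had GTTAAT on the reverse strand 185 bases before 1 of its starts. CAAAGTCCA, found in 0.387% of windows, was in none of the windows of the 9 genes that had one. A match is a run of letters and shows no binding.

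Values are FPKM, fragments scaled by transcript length and by library size, as deposited. The FPKM steps gave back whole reads, and the libraries held between 5567988 (control 1) and 15968416 (curcumin 3) of them. Library scaling was not in strict proportion to these read totals. For Guca2b, 80 reads made 12.96 FPKM in control 0, which held 9849671 reads, and 26.25 FPKM in control 1. All 8 epithelial markers checked, Vil1 among them, were present, for example Epcam at 626.3 to 927.8 FPKM. Immune cell markers were low but differed between groups. In control, AOM/DSS and curcumin libraries their median summed FPKM was 27.85, 56.5 and 12.9 for B and plasma cells. It was 24.08, 39.73 and 8.731 for macrophages and 1.498, 7.212 and 1.193 for neutrophils. The part of these cells in the differences below was not tested. The libraries also fell into a set of 5 in which GC-rich genes read high (control 0, AOM/DSS 0 and 1, curcumin 0 and 1) and a set of 7 in which they read low, here called GC-rich and AT-rich libraries. Only 1 control library was GC-rich. Differences within each set are given for each gene, and those from control within the GC-rich set rest on that single control.

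None of the 10 genes passed the test in any of the 3 comparisons. The test was limma on log2(FPKM + 1), with p-values adjusted over all 12052 genes by the Benjamini-Hochberg method and a threshold of 0.05. For AOM/DSS against control the fit called 0 of the 10 genes against 1.27% of all genes, for curcumin against AOM/DSS 0 against 1.08%, and for curcumin against control 0 against 0.141%. The voom fit in limma on the recovered reads also called 0 of 10 in each, against 1.42%, 1.16% and 0.224% of all genes. An unadjusted p below 0.05 was reached by 1 of the 10 genes for AOM/DSS against control, where 13.5% of all genes reached it, and by 0 in the comparisons of curcumin with AOM/DSS (14.5% of all genes) and with control (12.2%). That 1 gene was Myo1a, and it was also the only one of the 10 whose AOM/DSS and control libraries did not overlap, as in 6.02% of all genes (3.63% lower in AOM/DSS). Curcumin libraries separated from AOM/DSS libraries for 0 of the 10 genes (9.22% of all genes) and from control libraries for 0 (8.26%).

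**Figure D1:**
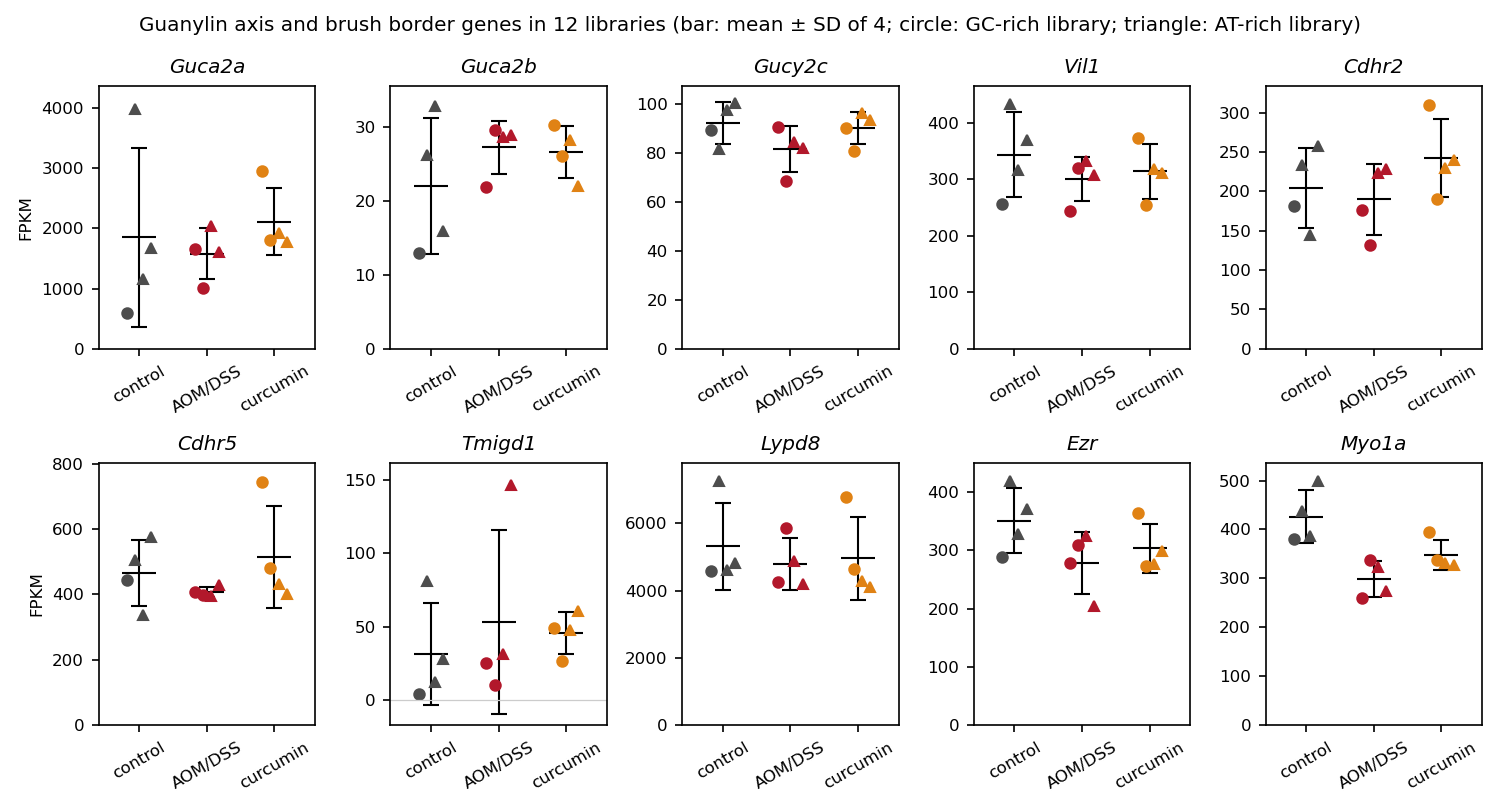
FPKM (vertical axes, linear and different for each gene) of the 10 genes in the control, AOM/DSS and AOM/DSS plus curcumin libraries; each point is 1 library, circles are GC-rich and triangles AT-rich libraries, and bars give the mean and SD of 4. The 4 AOM/DSS libraries sit below all 4 control libraries for Myo1a, at 260.2 to 337.6 against 381 to 499.3 FPKM, while the groups overlap for the other genes.

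Guca2a, the guanylin gene, was among the most abundant transcripts of these preparations, ranking between place 2 and place 114 in each library. It read 586, 3977, 1156 and 1678 FPKM in control libraries 0 to 3, and 1662, 1006, 2035 and 1606 FPKM in AOM/DSS libraries 0 to 3. The curcumin libraries read 2946, 1802, 1931 and 1766 FPKM. Both the highest and the lowest value of the 12 were controls, and all 3 groups overlapped. The means were 1849 ± 1487 FPKM in control, 1577 ± 425.8 in AOM/DSS and 2111 ± 561.1 in curcumin libraries (SD, n = 4 each).

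The guanylin difference between AOM/DSS and control was 0.07 on the log2 scale (95% interval -0.90 to 1.04, limma adjusted p = 0.964). It is positive although the AOM/DSS mean in FPKM is the lower one, since control 1 alone raises the control mean. That interval reaches from 1.87-fold lower to 2.06-fold higher, so a change in Guca2a within this range is not excluded by these libraries. Without control 0 the difference was -0.37, in the AT-rich libraries alone it was -0.13, and in the GC-rich libraries alone, with 1 control, it was 1.141. Curcumin against AOM/DSS gave 0.43 (-0.54 to 1.40, limma adjusted p = 0.729) and curcumin against control 0.50 (-0.47 to 1.47, limma adjusted p = 0.685). These were 0.83 and 1.97 in the GC-rich and 0.03 and -0.10 in the AT-rich libraries. The comparisons of AOM/DSS with control and with curcumin rest on the same 4 AOM/DSS libraries.

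Guca2b, the uroguanylin gene, which is known best from the small intestine, was lower than Guca2a in every library. Control libraries read 12.96, 26.25, 32.87 and 15.96 FPKM, AOM/DSS libraries 21.91, 29.58, 28.62 and 28.91 FPKM, and curcumin libraries 30.27, 26.1, 28.21 and 21.99 FPKM. The 2 lowest values were controls, and so was the highest. These levels rest on 80 to 275 recovered reads per library. The log2 difference was 0.38 for AOM/DSS against control (-0.13 to 0.89, limma adjusted p = 0.536), -0.03 for curcumin against AOM/DSS (limma adjusted p = 0.974) and 0.35 for curcumin against control (limma adjusted p = 0.587). In the same order these were 0.92, 0.14 and 1.06 in the GC-rich and 0.25, -0.20 and 0.05 in the AT-rich libraries.

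The FPKM of Guca2a was 34.02 to 151.5 times that of Guca2b. The ratio was 45.23, 151.5, 35.15 and 105.2 in control, 75.86, 34.02, 71.11 and 55.56 in AOM/DSS and 97.34, 69.05, 68.42 and 80.31 in curcumin libraries. Its control values spanned all of the curcumin range. The ligands shared little of their variation over the 12 libraries (Pearson's r = 0.45, Spearman's rho = 0.12), and r was -0.09 without the 2 libraries farthest from the median of Guca2a.

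Gucy2c, the receptor of both peptides, was the steadiest of the 10 genes. It read 89.18, 81.34, 97.3 and 100.2 FPKM in control, 90.56, 68.45, 84.54 and 82.04 FPKM in AOM/DSS and 90.05, 80.8, 96.17 and 93.32 FPKM in curcumin libraries. The highest value was 1.46 times the lowest, and the groups overlapped. Means were 92.01 ± 8.51, 81.4 ± 9.34 and 90.09 ± 6.68 FPKM (SD, n = 4 each). For AOM/DSS against control the difference was -0.18 on the log2 scale (-0.43 to 0.08, limma adjusted p = 0.555), for curcumin against AOM/DSS 0.15 (-0.10 to 0.40, limma adjusted p = 0.619) and for curcumin against control -0.03 (-0.28 to 0.22, limma adjusted p = 0.947). These are the narrowest intervals among the 10 genes. In the same order the differences were -0.18, 0.11 and -0.06 in the GC-rich and -0.15, 0.18 and 0.03 in the AT-rich libraries. Receptor and guanylin levels gave r = 0.05 over the 12 libraries. That r was 0.36 without the 2 libraries farthest from the median of Guca2a and -0.59 in the 7 AT-rich libraries.

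Myo1a encodes brush border myosin-1a, the motor that bridges the actin core of a microvillus to its membrane. Control libraries read 381, 437.7, 387.2 and 499.3 FPKM and AOM/DSS libraries 260.2, 337.6, 322.6 and 275.1 FPKM. The curcumin libraries, at 394, 338.4, 330.5 and 328.1 FPKM, overlapped both. Every AOM/DSS library lay below every control library. Means were 426.3 ± 54.88, 298.9 ± 37.07 and 347.8 ± 31.17 FPKM (SD, n = 4 each).

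For Myo1a the AOM/DSS difference was -0.51 on the log2 scale (SE 0.13, interval -0.80 to -0.22). The unadjusted p was 0.00218, place 299 among the tested genes, and the limma adjusted p of 0.0881 missed the threshold. Over the alternatives the adjusted p ran from 0.0579 (voom) to 0.756 (GC-rich libraries alone). The difference kept its sign, at -0.36 in the GC-rich and -0.56 in the AT-rich libraries. Curcumin against AOM/DSS gave 0.22 (-0.07 to 0.51, limma adjusted p = 0.485) and curcumin against control -0.29 (-0.58 to 0.001, limma adjusted p = 0.413). These were 0.30 and -0.06 in the GC-rich and 0.14 and -0.41 in the AT-rich libraries.

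The summed FPKM of 6 surface colonocyte markers was 3145 to 5575 in control, 1874 to 3621 in AOM/DSS and 4196 to 6540 in curcumin libraries, with none of the 6 at 0 in any group. The median of this sum was 4102 in control, 2543 in AOM/DSS and 4601 in curcumin libraries. Its part in the Myo1a difference was not tested. In bulk scrapings, fewer cells of a type and less RNA per cell cannot be told apart.

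Vil1 encodes villin, which bundles and severs the actin of the microvillus core. It read 256.5, 433.5, 315.6 and 368.8 FPKM in control, 244.3, 319.7, 331.8 and 307.7 FPKM in AOM/DSS and 373.4, 253.7, 318.1 and 310.7 FPKM in curcumin libraries. No group stood apart. The log2 differences were -0.17 for AOM/DSS against control (-0.56 to 0.21, limma adjusted p = 0.717) and 0.06 for curcumin against AOM/DSS (-0.32 to 0.44, limma adjusted p = 0.928). They were 0.12 and 0.14 in the GC-rich and -0.21 and -0.02 in the AT-rich libraries.

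Ezr encodes ezrin, the linker between actin and the apical membrane that also scaffolds the regulators of Slc9a3. Its values were 287.9, 418.6, 328 and 370.2 FPKM in control, 277.9, 309.5, 324.1 and 204.8 FPKM in AOM/DSS and 364.2, 273.2, 276.9 and 299.2 FPKM in curcumin libraries. AOM/DSS 3 was the lowest of all 12 and control 1 the highest, but AOM/DSS 1 and 2 lay above control 0. The log2 difference of AOM/DSS from control was -0.34 (-0.71 to 0.03, limma adjusted p = 0.419), with 0.03 in the GC-rich and -0.52 in the AT-rich libraries. Curcumin against AOM/DSS gave 0.13 (-0.24 to 0.50, limma adjusted p = 0.791), with 0.10 and 0.16.

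Cdhr2 and Cdhr5 encode the 2 cadherins that pair across neighbouring microvilli to form the intermicrovillar links. Cdhr2 read 180.8, 233.1, 144.3 and 257 FPKM in control, 176, 131.6, 223.4 and 227.9 FPKM in AOM/DSS and 308.9, 190.3, 229.8 and 239.3 FPKM in curcumin libraries. Cdhr5 read 444.6, 505, 337.3 and 574.5 FPKM in control, 406.9, 399.8, 396.8 and 430.2 FPKM in AOM/DSS and 745.1, 481.2, 430.9 and 402.8 FPKM in curcumin libraries. Curcumin 0 held the highest level of both cadherins, and the groups overlapped. The 4 AOM/DSS values of Cdhr5 lay close together, with an SD of 15.09 FPKM against 100.5 in control and 156.8 in curcumin libraries.

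Curcumin against AOM/DSS gave 0.36 on the log2 scale for Cdhr2 (-0.12 to 0.84, limma adjusted p = 0.491) and 0.29 for Cdhr5 (-0.14 to 0.72, limma adjusted p = 0.556). AOM/DSS against control gave -0.10 for Cdhr2 (-0.58 to 0.38, limma adjusted p = 0.881) and -0.16 for Cdhr5 (-0.60 to 0.27, limma adjusted p = 0.776). In the GC-rich libraries the curcumin difference was 0.67 for Cdhr2 and 0.57 for Cdhr5, against 0.06 and 0.01 in the AT-rich libraries. The AOM/DSS difference of Cdhr2 was -0.25 in the GC-rich and 0.14 in the AT-rich libraries, and that of Cdhr5 was -0.14 and -0.16. Over the 12 libraries the cadherins gave r = 0.73 (adjusted permutation p = 0.0758) and rho = 0.66 (adjusted permutation p = 0.138). Neither passed the threshold after adjustment over all pairs of the genes followed here.

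Lypd8 encodes a GPI-anchored protein of the colonic surface that binds flagellated bacteria and keeps them off the epithelium. It had the highest FPKM of all symbols in each of the 12 libraries. Control libraries read 4591, 7262, 4620 and 4816 FPKM, AOM/DSS libraries 4267, 5868, 4877 and 4197 FPKM, and curcumin libraries 6785, 4646, 4298 and 4111 FPKM. One library in each group stood above the rest, and the groups overlapped. The log2 differences were -0.13 for AOM/DSS against control (-0.60 to 0.34, limma adjusted p = 0.834), 0.03 for curcumin against AOM/DSS (-0.44 to 0.50, limma adjusted p = 0.972) and -0.10 for curcumin against control (limma adjusted p = 0.882). In the same order they were 0.12, 0.17 and 0.29 in the GC-rich and -0.27, -0.11 and -0.37 in the AT-rich libraries.

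Tmigd1 encodes an immunoglobulin-domain adhesion protein of the enterocyte surface. It was the most variable of the 10 genes, at 4.34, 81.01, 12.08 and 27.98 FPKM in control, 25.44, 10.04, 31.53 and 146.4 FPKM in AOM/DSS and 49.19, 26.38, 47.76 and 60.42 FPKM in curcumin libraries. The highest library was 33.7 times the lowest. AOM/DSS 3 and control 1 stood above the rest of their groups, and the groups overlapped. The log2 difference was 0.77 for AOM/DSS against control (-0.96 to 2.50, limma adjusted p = 0.726), 0.39 for curcumin against AOM/DSS (-1.34 to 2.12, limma adjusted p = 0.882) and 1.16 for curcumin against control (-0.57 to 2.89, limma adjusted p = 0.592). Curcumin against AOM/DSS is positive on the log scale although the AOM/DSS mean in FPKM (53.36 ± 62.7, SD, n = 4) is above that of the curcumin libraries (45.94 ± 14.22). In the same order the differences were 1.68, 1.12 and 2.80 in the GC-rich and 1.139, -0.34 and 0.80 in the AT-rich libraries. Single libraries decided the size of the first: it was 0.07 without AOM/DSS 3, 0.13 without control 0 and 1.44 without control 1.

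**Figure D2:**
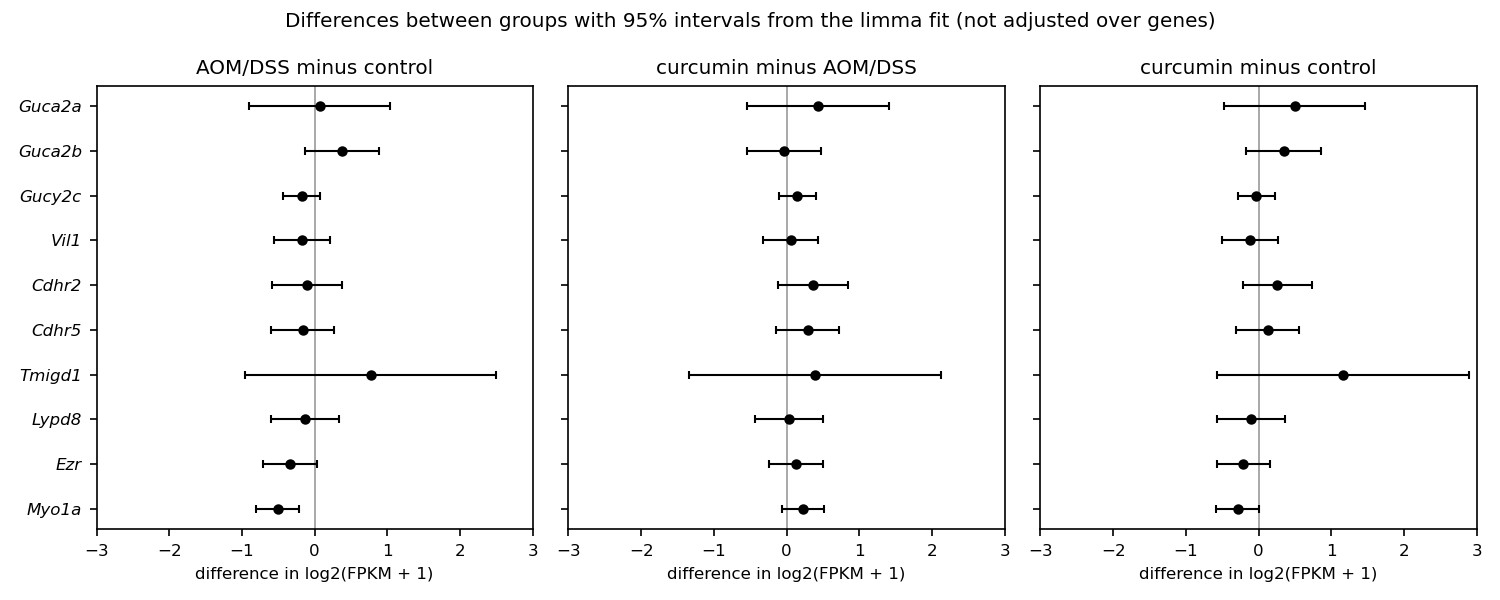
Difference in log2(FPKM + 1) for each of the 10 genes (rows) in the 3 comparisons (panels), as points with the 95% interval of the limma fit, not adjusted over genes. Only the Myo1a interval for AOM/DSS minus control, -0.80 to -0.22, leaves out 0, and the Tmigd1 and Guca2a intervals are the widest.

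By direction alone, 7 of the 10 genes had a lower log2 mean in AOM/DSS than in control libraries and 9 of 10 a higher one in curcumin than in AOM/DSS libraries. The median difference was -0.15 in the first comparison, where the median of all tested genes was 0.02, and 0.19 in the second, against -0.01. The shared AOM/DSS libraries enter both with opposite signs. Both counts differed between the GC-rich and the AT-rich libraries. For curcumin against AOM/DSS, all 10 were higher in the GC-rich libraries alone. In the AT-rich libraries alone Vil1, Tmigd1 and Lypd8 joined Guca2b on the lower side, as Vil1 and Lypd8 did at a common sum. For AOM/DSS against control, Vil1, Lypd8 and Ezr were higher in the GC-rich libraries alone. In the AT-rich libraries alone Cdhr2 was higher and Guca2a lower. Curcumin against control had 5 genes on each side, with a median of 0.05 against 0.01 for all genes.

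The 10 genes differed widely in their spread between libraries of the same group. The pooled SD within groups, on the log2 scale, was 1.35 for Tmigd1, above 99.8% of all tested genes, and 0.74 for Guca2a, above 97.3%. Guca2b had 0.38, above 82.8%, and Cdhr2 0.34, above 78.3%. Cdhr5 (0.30), Lypd8 (0.29), Vil1 (0.25) and Ezr (0.24) lay nearer the median of all genes, 0.24. Myo1a (0.16) and Gucy2c (0.14) were steadier than most, with 18.9% and 10.5% of genes below them. Among the 898 genes with a mean of 100 FPKM or more, the spread of Guca2a exceeded 98.0%.

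**Figure D3:**
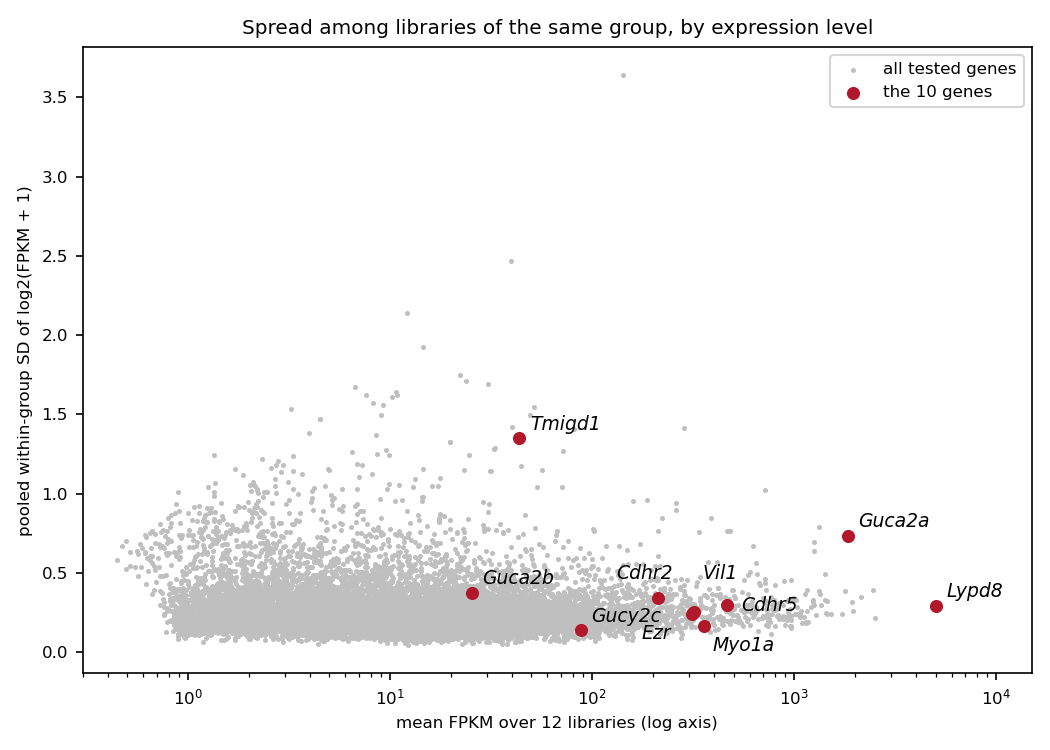
Pooled SD of log2(FPKM + 1) within the 3 groups (vertical axis) against the mean FPKM over 12 libraries (horizontal log axis) for all tested genes (grey) and the 10 genes (red). Tmigd1 at 1.35 and Guca2a at 0.74 lie above the bulk of genes of like expression, and Gucy2c at 0.14 lies low in it.

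In order of median FPKM over the 12 libraries the genes ran Lypd8 (4633), Guca2a (1722), Cdhr5 (430.5), Myo1a (338), Vil1 (316.9), Ezr (304.4), Cdhr2 (225.6), Gucy2c (89.62), Tmigd1 (29.75) and Guca2b (27.23). The ranges of neighbours did not overlap at 2 steps, from Lypd8 to Guca2a and from Cdhr2 to Gucy2c, and overlapped at the others. Within libraries the order held more often: Guca2a lay above Cdhr5 in 12 of 12, Cdhr5 above Myo1a, Ezr above Cdhr2 and Gucy2c above Tmigd1 in 11 of 12 each, and Myo1a above Vil1 in 10 of 12. Vil1 lay above Ezr in 7 of 12 and Tmigd1 above Guca2b in 9 of 12 libraries.

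Of the 45 pairs among the 10 genes, 37 had a positive r of log2(FPKM + 1) over the 12 libraries, and 0 reached an adjusted permutation p below 0.05 for r or for rho. The highest by r were Ezr with Myo1a (r = 0.79, permutation p = 0.00298, adjusted over the 45 pairs 0.0758; rho = 0.72, adjusted 0.101) and Guca2a with Tmigd1 (r = 0.78, permutation p = 0.00372, adjusted 0.0758; rho = 0.66, adjusted 0.138). By rho the highest was Vil1 with Ezr (rho = 0.82, permutation p = 0.00204, adjusted 0.0918; r = 0.68, adjusted 0.102). Leaving out the 2 libraries farthest from the median of the first gene gave 0.73 for Ezr with Myo1a, 0.57 for Guca2a with Tmigd1 and 0.55 for Vil1 with Ezr. Within the 7 AT-rich libraries r was 0.86, 0.49 and 0.78 in that order, and the 5 GC-rich libraries were too few for one. The libraries share depth and composition effects, which touch every pair.

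The genes whose pattern over the 12 libraries was most like that of Guca2a were Fabp2 (r = 0.944), Edn3 (0.939), Rab4a (0.924), Snx7 (0.914) and Rnf10 (0.908). For Guca2b they were Dynlt1c (0.957), Mrpl20 (0.942), Dynlt1f (0.941), Dpy30 (0.936) and Tmem258 (0.928). For Vil1 they were Tubal3 (0.968), Epb4.1l4b (0.958), Cutal (0.956), Pfkp (0.949) and Arpc2 (0.941). These are the highest of all tested genes and are descriptions with no test.

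Fabp2, the fatty acid binding protein of enterocytes, ran from 62.03 FPKM in control 0 to 559.1 in control 1, the same libraries that held the lowest and the highest Guca2a. It is 1 of 8 small intestine enterocyte markers, whose summed FPKM was 121.9, 643.8, 190.9 and 283.5 in control, 275.9, 125.6, 333 and 366.2 in AOM/DSS and 532.9, 346.8, 512.8 and 410 in curcumin libraries. Fabp2 makes up most of that sum. The other 7 markers summed to 54.98 to 103.2 FPKM in control, 34.98 to 72.22 in AOM/DSS and 98.27 to 144.1 in curcumin libraries. Control 0 stood at 59.83 and control 1 at 84.72 FPKM by those 7 markers. Apoa1, Apoa4 and Lct, 3 of the markers, stayed below 1 FPKM in every library. The part of this list in the Guca2a pattern was not tested. The summed 8 goblet cell markers were 4378 to 6071 FPKM in control, 5612 to 8274 in AOM/DSS and 6953 to 8808 in curcumin libraries, with none at 0.

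The other genes of the pathway and of the brush border were read from 3 lists. In none of them did a gene pass the test in any comparison, by limma or by voom, so the counts of genes that rose and fell were 0 throughout.

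The guanylin and cyclic GMP list had 11 tested genes of 16, with a median difference of 0.06 for AOM/DSS against control and of -0.13 for curcumin against AOM/DSS. An unadjusted p below 0.05 was reached by 1, 1 and 0 of the 11 in AOM/DSS against control, curcumin against AOM/DSS and curcumin against control, where 13.5%, 14.5% and 12.2% of all genes reached it. The kinase gene Prkg2, which encodes the cyclic GMP-dependent kinase that acts on Cftr, read 1.96 ± 1.35 FPKM in control, 5.43 ± 7.40 in AOM/DSS and 1.73 ± 0.292 in curcumin libraries (SD, n = 4 each). That AOM/DSS mean rests on AOM/DSS 3 at 16.46 FPKM, the other 3 being 0.6135 to 2.495. The AOM/DSS differences of Prkg2 (0.63), the phosphodiesterase Pde2a (0.52), the cyclic nucleotide exporter Abcc4 (0.48) and the scaffold Slc9a3r2 (0.47) had limma adjusted p of 0.679, 0.323, 0.461 and 0.424.

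All 18 genes of the microvillus core and adhesion list were tested, and 13 of them had a lower log2 mean in AOM/DSS than in control libraries, with a median of -0.16. The median was 0.03 for curcumin against AOM/DSS. For curcumin against control it was -0.18, with 13 of the 18 lower and 5 higher, where the median of all genes was 0.01. An unadjusted p below 0.05 was reached by 3, 3 and 6 of the 18 in the 3 comparisons, in the same order (13.5%, 14.5% and 12.2% of all genes). Cobl, an actin nucleator of the brush border, read 30.49, 37.99, 26.09 and 48.93 FPKM in control, 17.66, 14.91, 24.37 and 23.32 FPKM in AOM/DSS and 30.16, 25.27, 30.81 and 36.47 FPKM in curcumin libraries. Its AOM/DSS libraries all lay below the controls, at -0.80 on the log2 scale with a limma adjusted p of 0.0767. Rdx, which encodes radixin, a relative of ezrin, read 8.369 to 11.1 FPKM in control and 4.672 to 6.716 in AOM/DSS libraries, again without overlap, at -0.77 with a limma adjusted p of 0.0539. Of all genes, 3.63% were likewise lower in AOM/DSS than in control libraries without overlap. Ush1c of the list, picked after its values were seen, was too, at 65.6 to 79.08 against 82.14 to 102.1 FPKM (limma adjusted p = 0.375). Cobl and Rdx missed the threshold, as did Anks4b, a scaffold of the cadherin links (-0.40, limma adjusted p = 0.394) and the villin relative Vill (0.40, limma adjusted p = 0.599). For curcumin against AOM/DSS the lowest value of the list was that of Msn, which encodes moesin, another relative of ezrin (-1.09, limma adjusted p = 0.126), picked after its value was seen. AOM/DSS 2, at 9.444 FPKM, was the highest library for Msn. That library also held the highest summed FPKM of the B and plasma cell (120.6) and T and NK cell (15.03) markers. It did not hold the highest sum of the macrophage or neutrophil markers. The part of these cells in the Msn difference was not tested.

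The apical enzyme and glycocalyx list had 13 tested genes of the 18 named, with 16 of the symbols in the tables and a median of -0.16 for AOM/DSS against control and 0.25 for curcumin against AOM/DSS. Of the 13, 2, 5 and 3 reached an unadjusted p below 0.05 in the 3 comparisons, in the same order (13.5%, 14.5% and 12.2% of all genes). The peptidase gene Naaladl1 read 40.82, 32.99, 29.83 and 42.36 FPKM in control, 19.3, 12.05, 12.89 and 45.78 FPKM in AOM/DSS and 51.46, 38.1, 38.85 and 35.37 FPKM in curcumin libraries. AOM/DSS 3 lay with the controls and the other 3 AOM/DSS libraries below them. Its differences were -0.87 for AOM/DSS against control (limma adjusted p = 0.247) and 1.03 for curcumin against AOM/DSS (limma adjusted p = 0.158). Without AOM/DSS 3 it passed the test in both. Anpep, an aminopeptidase, gave -0.65 (limma adjusted p = 0.1502), Ggt1, gamma-glutamyltransferase, 0.77 (limma adjusted p = 0.460) and Alpi, an alkaline phosphatase, 0.58 (limma adjusted p = 0.656) for AOM/DSS against control. The value of Ggt1 rests on AOM/DSS 3 at 10.04 FPKM, the other 3 AOM/DSS libraries being 1.091 to 1.697 and the controls 0.8001 to 1.293.

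**Figure D4:**
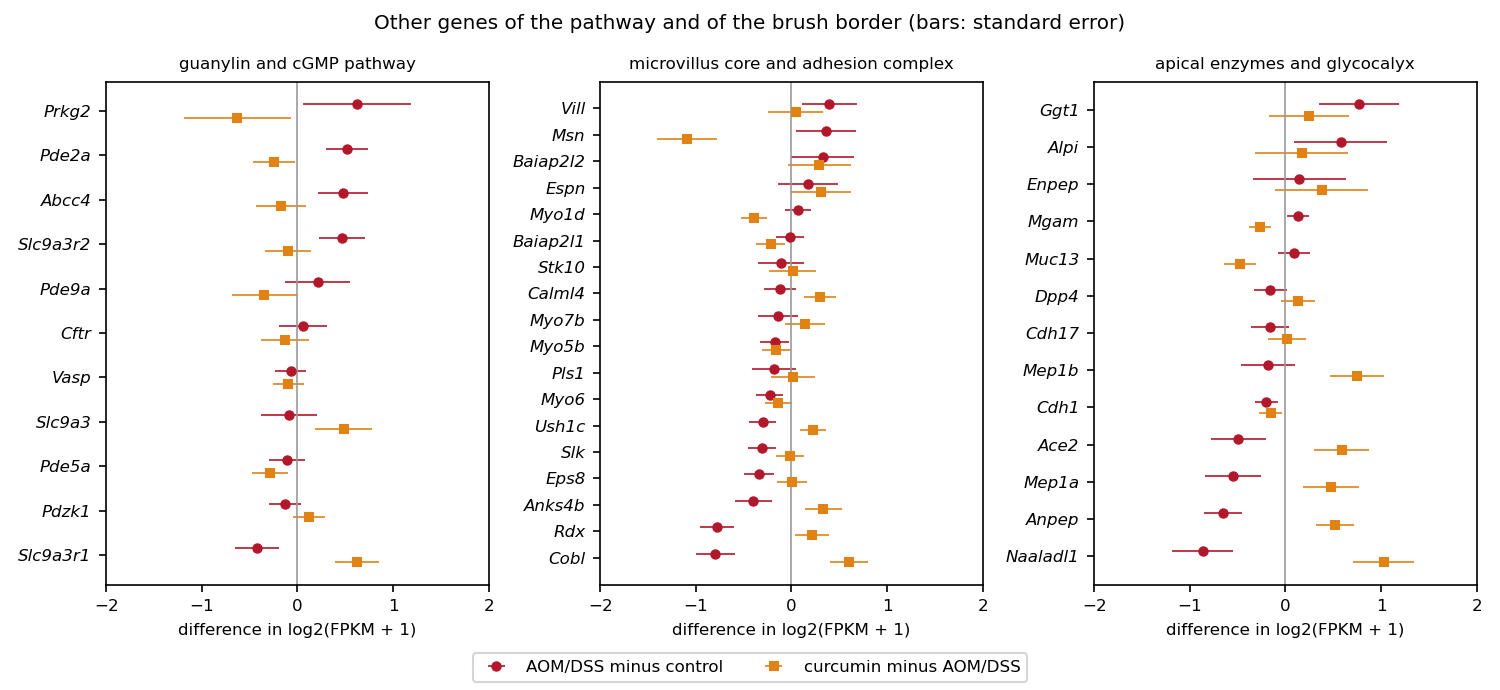
Difference in log2(FPKM + 1) with its standard error for the tested genes of the 3 lists (panels), for AOM/DSS minus control (red circles) and curcumin minus AOM/DSS (orange squares). None passed the test; for AOM/DSS minus control, Rdx and Cobl, at -0.77 and -0.80, are the lowest of the microvillus list and Naaladl1, at -0.87, the lowest of the apical list, while for curcumin minus AOM/DSS the lowest of the microvillus list is Msn at -1.09.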

How the data were processed

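The files held 1 FPKM value per gene symbol and library, deposited by the authors. Tools and builds named without roles in the submitters' processing notes include the mm9 build, featureCounts 1.5.1, R 3.4.0 with DESeq2, and TopHat2 2.1.1. FPKM was tested as log2(FPKM + 1), on which low genes show smaller changes, with limma 3.58.1 in R 4.3.3 (1 mean per group, 12 libraries, 9 residual degrees of freedom, intensity trend, two-sided). Genes needed 1 FPKM or more in 4 libraries. FPKM steps were whole multiples of 1 read for all 19233 symbols above 0, within 0.001 reads. The fit was tested on simulated data. The 10 genes and the gene lists were chosen with earlier results of these data known. From each list, every gene past the threshold, otherwise the 4 with the largest difference between AOM/DSS and control, was to be named, and for Guca2a, Guca2b and Vil1 the 5 genes with the highest correlation. Group labels were the submitters'. Correlations used 100000 permutations. GC-rich and AT-rich libraries were told apart by the correlation, across genes, of a library's deviation with gene GC content in GENCODE vM21 (11969 of 12052 genes matched). Promoters came from RefSeq (GRCm38.p6) and 9 of the 10 genes matched. Exons of another gene covered 1.38% of Vil1 and 0.122% of Ezr, and no transcript of another gene was 95% identical to a member over 100 bases. Alternatives varied the pseudocount, filter, scaling, samples in the fit, replicate block, GC covariate and depth model, and left out each library. The analyses of GC-rich and of AT-rich libraries alone were chosen after seeing the data.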

Additional observations from a re-analysis of the deposited data

Results flagged for a closer look

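Of the 30 sets of 4 libraries (10 genes in 3 groups), 5 had a library far from the other 3, by a gap above Dixon's 95% critical share of the range; about 1 in 20 such sets does so by chance. Lypd8 read 7262 FPKM in control 1, with a gap of 0.916 of the range to the next control. Guca2b read 21.91 FPKM in AOM/DSS 0, below the other 3 (0.876). Guca2a read 2946 FPKM in curcumin 0 (0.861) and Myo1a read 394 FPKM in the same library (0.845), both above the other 3 curcumin libraries. Tmigd1 read 146.4 FPKM in AOM/DSS 3 (0.843), above the other 3 AOM/DSS libraries.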

How the results depend on the processing

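No alternative called any of the 10 genes: the count was 0 in all 3 comparisons, with the replicate block included. Of their fold changes, 647 kept direction and side of the threshold, 3 were 0 by construction (Lypd8, first in every library, after quantile normalization) and 40 changed sign without passing it; the cause was not tested. For AOM/DSS against control, AT-rich libraries alone gave Guca2a -0.13 and Cdhr2 0.14, and GC-rich libraries alone Vil1 0.12, Lypd8 0.12 and Ezr 0.0266 (log2). For curcumin against AOM/DSS, Guca2b was 0.14 in GC-rich libraries; Vil1 was -0.0507 after quantile normalization, -0.00764 at a common sum and -0.0234 in AT-rich libraries; Tmigd1 was -0.34 in AT-rich libraries; Lypd8 was -0.0357 at a common sum and -0.11 in AT-rich libraries. For curcumin against control, AT-rich libraries gave Guca2a -0.10, Gucy2c 0.0329 and Cdhr5 -0.15, GC-rich libraries Vil1 0.26, Lypd8 0.29 and Ezr 0.13, and voom Gucy2c 0.0111. Leaving out 1 library moved the AOM/DSS differences of Guca2a from -0.37 to 0.55, Cdhr2 from -0.25 to 0.0625 and Lypd8 from -0.23 to 0.0255. It moved curcumin against AOM/DSS for Guca2b from -0.13 to 0.0544, Vil1 from -0.0387 to 0.16, Tmigd1 from -0.16 to 1.09, Lypd8 from -0.13 to 0.13 and Ezr from -0.00905 to 0.21. It moved curcumin against control for Gucy2c from -0.0856 to 0.0222, Vil1 from -0.25 to 0.00392, Cdhr5 from -0.0631 to 0.24 and Lypd8 from -0.26 to 0.0554.

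Among the related lists, 1 gene (Rdx) passed for AOM/DSS against control after quantile normalization and 1 (Rdx) with the GC covariate. Leaving out 1 library gave 0 to 1 (Rdx without AOM/DSS 2 or curcumin 0, Naaladl1 without AOM/DSS 3), and for curcumin against AOM/DSS 0 to 2 (Enpep and Naaladl1 without AOM/DSS 3).

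Over all genes, 153, 130 and 17 were called in the 3 comparisons. The replicate block gave 82, 86 and 2, fits of the 2 groups alone 54, 85 and 23, the GC covariate 238, 272 and 40, GC-rich libraries alone 7, 8 and 0 and AT-rich libraries alone 4, 1 and 0. Leaving out 1 library gave 53 to 201, 48 to 149 and 4 to 35 (fewest for the first without control 3). Curcumin against control gave 7 without a filter, 11 at a pseudocount of 0.1 and 27 by voom. Same-numbered libraries correlated between -0.333 and 0.456 in their deviations from group means, and 8 of 24 best matches in another group had the same number. Libraries numbered 0 were all GC-rich and those numbered 2 or 3 all AT-rich, so the number goes with the GC sets. Whether the numbers pair the libraries cannot be told from these values. Intervals for Guca2a and Tmigd1 are wide because their libraries differ within groups, and Guca2b rests on few reads.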

Other observations

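Some genes of the related lists were also high in AOM/DSS 3, the library with the highest Tmigd1; those named here were picked after their values were seen, and no test was run. Of the 42 tested genes of the lists, 6 had their highest value in AOM/DSS 3, against 11 in control 1 and 8 in control 3. AOM/DSS 3 also held the highest summed FPKM of the macrophage (56.32), fibroblast (22.49) and smooth muscle (23.05) markers, whose part was not tested. Sis, which encodes the disaccharidase sucrase-isomaltase of the small intestinal brush border, read 7.507 FPKM in AOM/DSS 3 and 0.01958 to 0.1486 in the other 11 libraries. Enpep, glutamyl aminopeptidase, read 7.638 FPKM there, against 0.339, 0.3012 and 0.3729 in the other 3 AOM/DSS libraries and at most 2.446 elsewhere. Ggt1 read 10.04 FPKM in AOM/DSS 3 and 0.8001 to 4.787 in the others, and Prkg2 read 16.46 FPKM against 0.6135 to 3.438.

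Edn3, the endothelin-3 gene, followed Guca2a closely at a far lower level, from 1.207 FPKM in control 0 to 7.935 FPKM in control 1 (Pearson's r = 0.939 and Spearman's rho = 0.895 over the 12 libraries, as a description). Edn3 read 7.067 FPKM in curcumin 0, the library with the second highest Guca2a.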
